A study of Mus musculus with 16 samples.

Results

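The melanocortin 4 receptor Mc4r, its accessory protein Mrap2, the melanocortin precursor Pomc and the melanin-concentrating hormone receptor Mchr1 were followed in the mouse dorsal hippocampus. These 4 genes, of 55385 gene identifiers in the count files, were chosen by name after the identifiers had been matched to gene symbols. The choice was made with results of the comparison of viruses in these libraries known, so values of these genes between viruses are a description without a test. Tests are given for the comparisons between days, and for other genes of the pathway. The lists of those other genes were also chosen with earlier results of these data known. Their calls between viruses are therefore not independent support.

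Pomc encodes a precursor that is cut into several peptides, among them alpha-MSH and ACTH, and alpha-MSH activates the receptor encoded by Mc4r. This receptor couples to the stimulatory G protein and raises cyclic AMP. It is best known from hypothalamic neurons that restrain feeding, and it is also found in the hippocampus, where it has been linked to synaptic plasticity. Mrap2 encodes a small membrane protein that binds Mc4r and other receptors and alters their signalling. Mchr1 encodes the receptor for melanin-concentrating hormone, a peptide of the lateral hypothalamus that promotes feeding, and the receptor sits on the primary cilium of neurons.

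The study asked what extra Dnmt3a2, the short form of a DNA methyltransferase, does to hippocampal transcripts after learning. A recombinant adeno-associated virus (rAAV) carried either exogenous Dnmt3a2 or GFP, the control, into the dorsal hippocampus. All mice went through contextual fear conditioning 3 weeks later, in which a place becomes linked with a foot shock, and tissue was taken 1 day or 5 days after it. The 16 libraries were 4 each of Dnmt3a2 at 1 day, Control at 1 day, Dnmt3a2 at 5 days and Control at 5 days. All 4 groups therefore shared the virus injection and the conditioning, and an untrained or uninjected group was not analysed here. The sources used here name no strain, no age, no promoter in the viral cassette and no cell type that it reached. Nothing in the labels ties a library to an animal of its own, so p-values measure the spread between these libraries, which may be technical.

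Totals were 28.6 to 30.0 M estimated counts per library. Dnmt3a, the overexpressed gene, averaged 964 ± 238 CPM (counts scaled to the library total) in Dnmt3a2 libraries and 34.8 ± 0.797 CPM in Control libraries at 1 day (SD, n = 4 each). At 5 days it averaged 1161 ± 110 CPM in Dnmt3a2 libraries and 35.1 ± 2.15 CPM in Control libraries (SD, n = 4 each), and the groups did not overlap. By an exact two-sided permutation test over 70 regroupings, p was 0.0286 for both days, which is the smallest value possible. Summed markers of CA1 and subiculum pyramidal cells lay between 968 and 1190 CPM over all 16 libraries, and those of dentate granule cells between 662 and 819 CPM, so the labelled hippocampus carried its markers. Replicate 1 of Dnmt3a2 at 1 day and replicate 1 of Dnmt3a2 at 5 days stood apart as rich in choroid plexus transcripts, with Ttr, the transthyretin of the choroid plexus, at 773.3 and 1253 CPM. These libraries and replicate 1 of Control at 1 day were also rich in interferon response transcripts.

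The promoters below show the DNA at the start of the genes, since CpG is the main, though not the only, dinucleotide that DNA methyltransferases methylate. Methylation was not measured here. The stretches are on the + strand of GRCm38.p6 and come from RefSeq, where 3 of the 4 genes matched by symbol. Ghsr, the ghrelin receptor, is shown because MRAP2 also modulates it. Each stretch begins 250 bases before the gene's start in the RefSeq promoter table and stops before the earliest start that RefSeq or GENCODE M21 annotates. Every CG is in capitals.
Mrap2, chr9:87144056-87144235: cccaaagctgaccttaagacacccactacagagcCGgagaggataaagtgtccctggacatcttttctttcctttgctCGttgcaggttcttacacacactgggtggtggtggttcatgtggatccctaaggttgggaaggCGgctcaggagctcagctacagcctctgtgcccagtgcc
Pomc, chr12:3954695-3954944: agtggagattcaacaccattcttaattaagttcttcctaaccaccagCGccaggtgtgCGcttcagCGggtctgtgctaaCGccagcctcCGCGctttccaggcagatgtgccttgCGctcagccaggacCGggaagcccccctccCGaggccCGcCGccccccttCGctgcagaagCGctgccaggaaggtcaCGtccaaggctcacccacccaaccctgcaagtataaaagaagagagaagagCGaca
Mchr1, chr15:81235249-81235498: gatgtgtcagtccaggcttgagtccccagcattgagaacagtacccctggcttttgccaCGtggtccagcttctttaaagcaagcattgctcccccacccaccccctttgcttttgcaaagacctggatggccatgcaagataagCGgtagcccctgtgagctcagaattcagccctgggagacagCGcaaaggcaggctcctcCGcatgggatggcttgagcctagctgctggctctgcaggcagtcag
Ghsr, chr3:27371101-27371350: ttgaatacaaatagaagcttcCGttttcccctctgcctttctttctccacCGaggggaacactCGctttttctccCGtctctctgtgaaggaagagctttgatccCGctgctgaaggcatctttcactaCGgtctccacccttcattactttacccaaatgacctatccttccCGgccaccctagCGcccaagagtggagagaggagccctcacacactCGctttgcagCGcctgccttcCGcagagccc
Counted in the 250 bases before the RefSeq start, Mrap2 had 16 CG, Pomc 15, Mchr1 4 and Ghsr 11, where the median of 32851 such windows was 6. Of all windows, 74.6% had fewer CG than that of Mrap2, 72.7% fewer than Pomc, 37.8% fewer than Mchr1 and 64.4% fewer than Ghsr. The letters TATAAA, searched on both strands, occurred once in the window of Pomc, and 12.4% of all windows hold them. CG was searched as letters and is the same on both strands. RefSeq also annotates an earlier start of Mrap2 at 87144236, so its stretch is 180 bases with 3 of the 16 CG, and the 70 bases up to the start used for the count, with 13 CG, are not shown.

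Pomc (ENSMUSG00000020660, chromosome 12, 3954951 to 3960642, + strand of GRCm38), the ligand precursor, was close to the limit of counting. It had 0.584, 0.278, 0.723 and 0.901 CPM in Dnmt3a2 libraries at 1 day, against 0.626, 0.438, 0.927 and 0.798 CPM in Control libraries at 1 day. At 5 days it had 0.693, 0.362, 0.167 and 0.471 CPM in Dnmt3a2 libraries, against 0.768, 0.498, 0.458 and 0.485 CPM in Control libraries. The groups overlapped at both days, and these levels rest on 5 to 27 estimated counts per library. The log2 difference, Dnmt3a2 against Control, was -0.16 (SE 0.38) at 1 day and -0.38 (SE 0.40) at 5 days, with 95% intervals of -0.97 to 0.64 and -1.22 to 0.46. A difference between viruses was not detectable at this depth, and the intervals are wide. Between days, the log2 difference of 5 days against 1 day was -0.55 (SE 0.40) in Dnmt3a2 libraries and -0.33 (SE 0.39) in Control libraries, and neither passed edgeR's quasi-likelihood test (adjusted p = 0.653 and 0.999). Single libraries moved these values: the difference between viruses was -0.40 without replicate 4 and 0.079 without replicate 2 of Dnmt3a2 at 1 day, and -0.72 without replicate 1 and -0.12 without replicate 3 of Dnmt3a2 at 5 days.

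Pomc lies 40.5 kb past the end of Dnmt3a, the gene that the virus expresses. Efr3b, which lies 1.91 kb past Pomc, had a log2 difference of -0.0338 at 1 day and 0.0847 at 5 days. Of 10 neighbouring genes tested on chromosome 12, Dnmt3a, the overexpressed gene, alone was called by edgeR in any comparison. Of all tested genes, 0.0888% were called at 1 day, 0.32% at 5 days and 1.43% over both days. With Dnmt3a counted, 1 of the 10 lay above 0 at 1 day and 7 at 5 days, beside 50.9% and 52.8% of all tested genes. The log2 difference over both days of the other 9 genes ran from -0.0892 for Dnajc27 to 0.0751 for Asxl2. Exogenous Dnmt3a2 transcripts and those of the resident gene share sequence, and the counts do not separate them.

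The other peptides of the system were at the edge of detection. Agrp, the antagonist of melanocortin receptors made in the hypothalamus, had 24 estimated counts over the 16 libraries and was at 0 in 3 of them. Pmch, the precursor of melanin-concentrating hormone, had 57 estimated counts in all and at most 8 in a library. Markers of the hypothalamus, where these peptides are made, were summed over 15 genes, with Pomc, Agrp and Pmch among them. The sum was 5.69 to 7.23 CPM in Dnmt3a2 and 5.86 to 7.98 CPM in Control at 1 day. At 5 days it was 4.87 to 8.52 CPM in Dnmt3a2 and 6.10 to 6.94 CPM in Control. Pituitary markers, over 11 genes with Pomc among them, summed to at most 1.34 CPM, and growth hormone, Gh, was at 0 in 13 of the 16 libraries. The part of such tissue in the counts of Pomc was not tested.

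Mc4r (ENSMUSG00000047259, chromosome 18, 66857704 to 66860506, - strand, with 1 annotated transcript), the receptor, was higher in every Dnmt3a2 library than in every Control library. It had 7.73, 6.46, 6.72 and 7.56 CPM in Dnmt3a2 libraries at 1 day, against 3.36, 4.18, 4.88 and 6.25 CPM in Control libraries at 1 day. At 5 days it had 8.88, 8.56, 7.07 and 6.49 CPM in Dnmt3a2 libraries, against 5.51, 4.55, 4.96 and 3.60 CPM in Control libraries. The lowest Dnmt3a2 library, at 6.46 CPM, was above the highest Control library, at 6.25 CPM, and the groups did not overlap at either day. The group means were 7.11 ± 0.623 CPM in Dnmt3a2 and 4.67 ± 1.22 CPM in Control at 1 day, and 7.75 ± 1.15 CPM in Dnmt3a2 and 4.66 ± 0.805 CPM in Control at 5 days (SD, n = 4 each). The counts behind them ran from 102 to 269 per library.

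**Figure D1:**
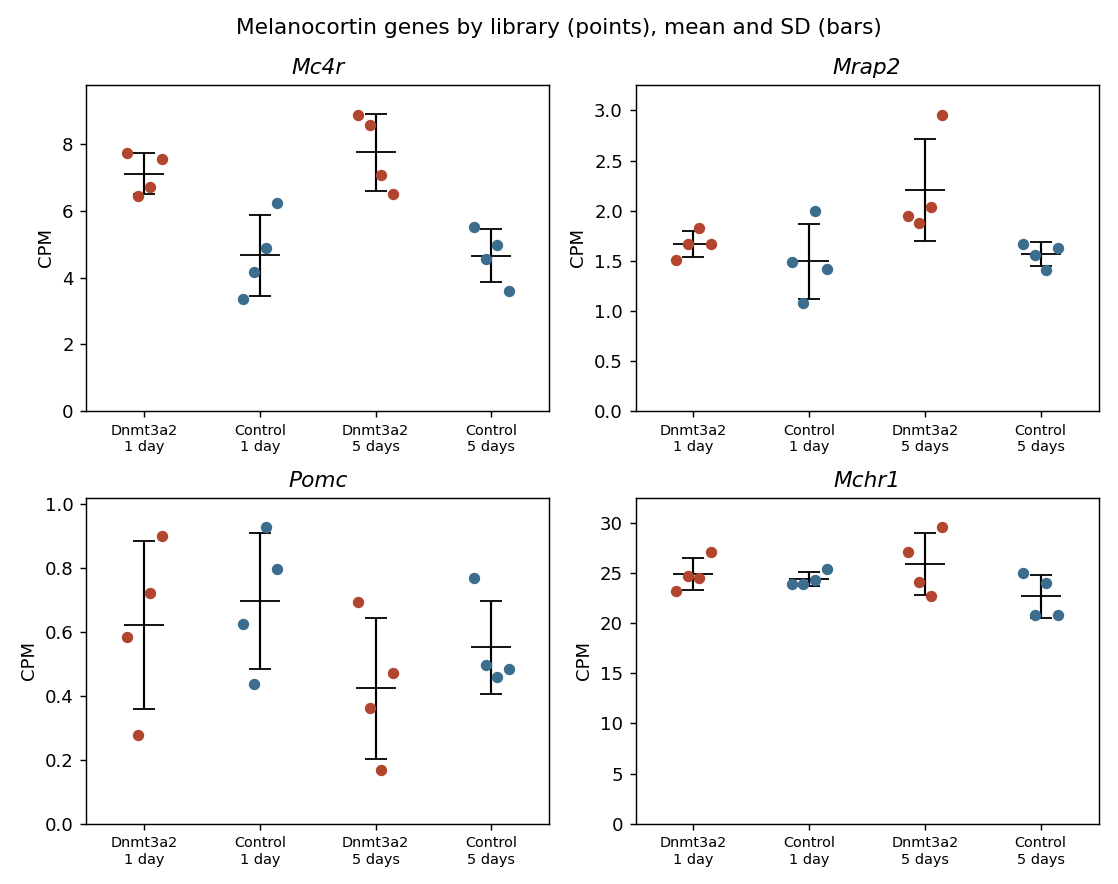
Levels of Mc4r, Mrap2, Pomc and Mchr1 in CPM in each of the 16 libraries, with points for libraries and bars for the mean and SD of 4 libraries per group. Every red point of Mc4r (Dnmt3a2) lies above every blue one (Control), with a narrow gap between 6.46 and 6.25 CPM, whereas the points of Pomc overlap at both days.

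On the log2 scale the Mc4r difference, Dnmt3a2 against Control, was 0.61 (SE 0.16) at 1 day, 0.73 (SE 0.16) at 5 days and 0.67 (SE 0.12) over both days, or 1.53-fold, 1.66-fold and 1.59-fold. Its 95% intervals were 0.27 to 0.95, 0.40 to 1.07 and 0.43 to 0.91. The difference between the effects of the viruses at 5 days and at 1 day was 0.12 on the log2 scale, with an interval of -0.36 to 0.60. Mc4r was the 1 of these 4 genes among the genes called by edgeR over both days, where 1.43% of 16899 tested genes were called. By edgeR none of the 4 was called at a single day, where 0.0888% (1 day) and 0.32% (5 days) of genes were. DESeq2 called Mc4r at 5 days as well, and it was called there in 5 of 25 alternative settings and at 1 day in 0 of 25. Groups that did not overlap made up 3.43% of tested genes at 1 day, 6.29% at 5 days and 0.402% over both days. The comparison of viruses was known when the gene was chosen, so nothing is read from these counts.

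All 15 choroid plexus markers had a log2 difference above 0 at each day and none was called by edgeR, with 3 at an unadjusted p under 0.05 over both days and 1 (Prlr) called by DESeq2. Of all 16899 tested genes, 2049 had an unadjusted edgeR p under 0.05 over both days, and DESeq2 called 512. Their summed level was 134 to 1200 CPM in Dnmt3a2 and 139 to 193 CPM in Control at 1 day, and 162 to 1860 CPM in Dnmt3a2 and 143 to 377 CPM in Control at 5 days. The 15 interferon response markers summed to 72.8 to 124 CPM in Dnmt3a2 and 53.9 to 106 CPM in Control at 1 day, and to 55.8 to 166 CPM in Dnmt3a2 and 56.4 to 73.9 CPM in Control at 5 days. Both marker lists reached their highest sum at either day in a Dnmt3a2 library. The 2 libraries rich in choroid plexus transcripts held the highest Mc4r of their groups, 7.73 CPM at 1 day and 8.88 CPM at 5 days. Without them the log2 difference was 0.57 at 1 day and 0.66 at 5 days. Without the 3 libraries rich in interferon response transcripts it was 0.44 and 0.66. The markers of hippocampal cell types included called genes, which are named here after their values were seen. Of all tested genes, edgeR called 1.43% over both days, 0.0888% at 1 day and 0.32% at 5 days. Over both days 4 of 10 dentate granule markers, 5 of 10 of CA1 and subiculum and 6 of 10 of astrocytes and oligodendrocytes lay above 0. So did 9 of 11 of CA3 and CA2, beside 52.6% of all tested genes. Of 10 dentate granule markers, Calb1, a calcium-binding protein, was called higher (log2 difference over both days 0.37, edgeR adjusted p = 0.000198), and C1ql2 (-0.49, adjusted p = 0.000117) and Dsp (-0.24, adjusted p = 0.0315) lower. By edgeR Calb1 was also called at 1 day, and Calb1 and C1ql2 at 5 days, as was Cpne9 of the CA3 and CA2 list (0.46, adjusted p = 0.014). Over both days DESeq2 also called Lct and Plk5 of the dentate granule list, and Gpr161 and Wfs1 of the CA1 and subiculum list. At single days it also called C1ql2 at 1 day and Dsp at 5 days. In these 2 lists limma-trend added Lct over both days. Of 10 CA1 and subiculum markers, Pou3f1 was called lower (-0.19, edgeR adjusted p = 0.0397). Of 10 astrocyte and oligodendrocyte markers, the astrocyte glutamate transporter Slc1a3 was called higher (0.19, edgeR adjusted p = 0.0426). Of 11 markers of CA3 and CA2 pyramidal cells, Cpne9 (0.33, edgeR adjusted p = 0.00485) and Spink8 (0.35, adjusted p = 0.0192) were called higher over both days, and the summed level of the list was 544 to 645 CPM in Dnmt3a2 and 525 to 559 CPM in Control at 1 day, and 566 to 648 CPM in Dnmt3a2 and 485 to 637 CPM in Control at 5 days. Of 12 markers of GABAergic interneurons, 10 of neocortex and 10 of thalamus, none was called by edgeR over both days, with 2, 3 and 2 at an unadjusted p under 0.05. DESeq2 called Cck and Fezf2 of these lists and limma-trend Cck. The part of a shift in cell types in the Mc4r difference was not tested. Leaving out each library in turn gave 0.61 to 0.76 over both days. In bulk tissue, more receptor transcript per cell and more cells that make it cannot be told apart.

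Between days, no difference of Mc4r passed the test. The log2 difference of 5 days against 1 day was 0.12 (SE 0.16) in Dnmt3a2 libraries, with an interval of -0.21 to 0.45, and -0.00052 (SE 0.17) in Control libraries, with an interval of -0.35 to 0.35. Neither passed edgeR's test (adjusted p = 0.826 and 1). No gene was called between days by edgeR in either virus, 0% of tested genes each, with 1822 genes at an unadjusted p under 0.05 in Dnmt3a2 and 598 in Control. DESeq2 called 48 genes between days in Dnmt3a2 and 0 in Control, and limma-trend 0 in both. DESeq2 gave Mc4r the same small differences between days, 0.12 in Dnmt3a2 and -0.00092 in Control.

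Mrap2 (ENSMUSG00000042761, chromosome 9, 87144306 to 87184045, + strand), the accessory protein, had 1.51, 1.67, 1.83 and 1.66 CPM in Dnmt3a2 libraries at 1 day, against 1.48, 1.08, 1.99 and 1.42 CPM in Control libraries at 1 day. At 5 days it had 1.95, 1.88, 2.04 and 2.96 CPM in Dnmt3a2 libraries, against 1.67, 1.56, 1.41 and 1.63 CPM in Control libraries. The groups overlapped at 1 day, and at 5 days the 4 Dnmt3a2 libraries lay above the 4 Control libraries, with replicate 4 of Dnmt3a2 at 5 days well above the rest. Of all tested genes, 6.29% had groups that did not overlap at 5 days. The log2 difference, Dnmt3a2 against Control, was 0.16 (SE 0.20) at 1 day and 0.49 (SE 0.20) at 5 days. The difference between these effects was 0.33 on the log2 scale, with an interval of -0.26 to 0.92 that holds 0. In Dnmt3a2 libraries the log2 difference of 5 days against 1 day was 0.40 (SE 0.20), which did not pass edgeR's test (adjusted p = 0.48), and in Control libraries it was 0.0695 (SE 0.20, adjusted p = 0.999). Single libraries moved these values. The difference between viruses at 1 day was 0.0305 without replicate 2 and 0.33 without replicate 3 of Control at 1 day. Without replicate 4 of Dnmt3a2 at 5 days, the difference between viruses at 5 days was 0.31 and that of 5 days against 1 day in Dnmt3a2 was 0.22 (edgeR adjusted p = 0.806).

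Mchr1 (ENSMUSG00000050164, chromosome 15, 81235499 to 81238964, + strand) was the most abundant of these genes. It had 23.3, 24.7, 24.5 and 27.1 CPM in Dnmt3a2 libraries at 1 day, against 24.0, 23.9, 24.3 and 25.4 CPM in Control libraries at 1 day. At 5 days it had 27.1, 24.1, 22.7 and 29.6 CPM in Dnmt3a2 libraries, against 25.0, 20.9, 24.0 and 20.8 CPM in Control libraries. The groups overlapped at both days. The log2 difference, Dnmt3a2 against Control, was 0.0304 (SE 0.0813) at 1 day and 0.19 (SE 0.0814) at 5 days, and the interval at 5 days was 0.0212 to 0.36. Between days it was 0.0545 in Dnmt3a2 libraries and -0.11 in Control libraries, and neither passed edgeR's test (adjusted p = 0.853 and 0.999). The difference between viruses was -0.0149 without replicate 4 of Dnmt3a2 at 1 day and 0.0621 without replicate 1 of that group, and at 5 days 0.117 without replicate 4 of Dnmt3a2.

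Per kilobase of annotated exon, a scale on which genes can be compared, Mchr1 averaged 11.2 CPM, Mc4r 2.16, Mrap2 0.768 and Pomc 0.435 over the 16 libraries. The receptor for melanin-concentrating hormone therefore stood above Mc4r in every group, with 11.4 against 2.54 CPM per kilobase in Dnmt3a2 at 1 day, 11.1 against 1.66 in Control at 1 day, 11.8 against 2.77 in Dnmt3a2 at 5 days and 10.4 against 1.66 in Control at 5 days.

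**Figure D2:**
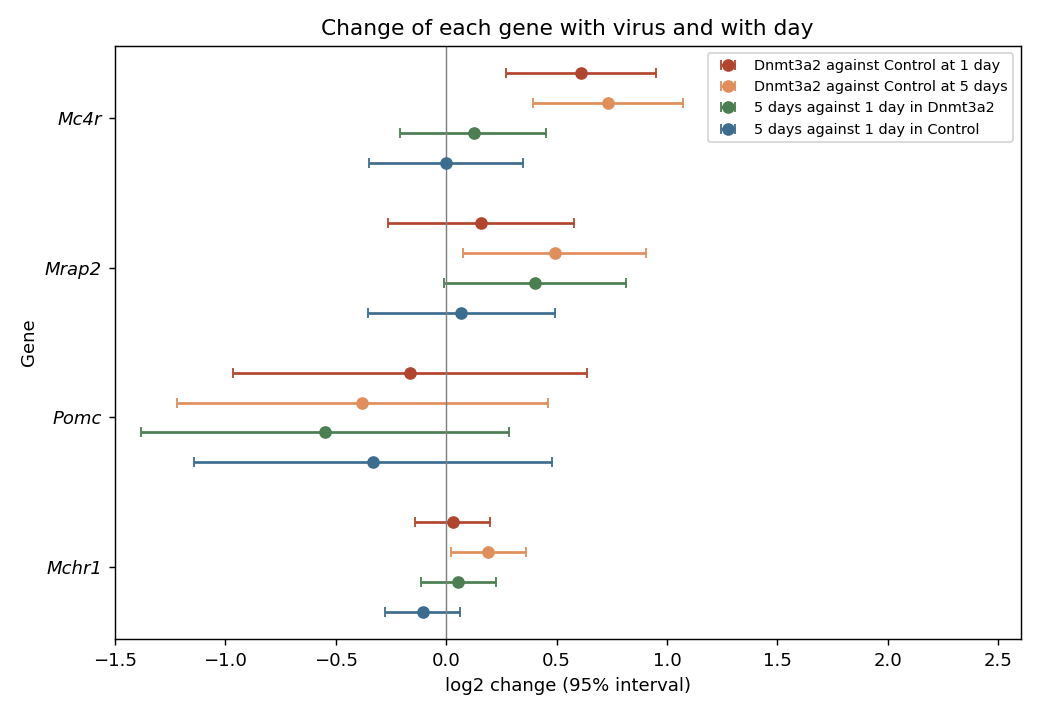
Log2 change of each gene with virus and with day, with points for the estimate and bars for the 95% interval. For Mc4r the intervals between viruses are 0.27 to 0.95 and 0.40 to 1.07, and both intervals between days include 0. The intervals between viruses are a description, since the genes were chosen with that comparison known. The intervals of Pomc are the widest of the 4 genes.

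Among the other receptors, Mc5r had a mean of 0.85 CPM and Mc3r, the other main melanocortin receptor of the brain, 29 estimated counts in all, 15 of them in replicate 1 of Dnmt3a2 at 5 days. Mc1r and Mc2r had 39 and 8 estimated counts in all. Of the 7 receptors and accessory proteins of the list, 3 were tested, which were Mc4r, Mrap2 and Mc5r. Mc5r had a log2 difference of -0.0678 (SE 0.23) over both days, which did not pass (edgeR adjusted p = 0.942).

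Ghsr, the receptor for the hunger hormone ghrelin and another receptor modulated by MRAP2, fell in Dnmt3a2 libraries over both days. It had 0.790, 1.32, 0.964 and 0.867 CPM in Dnmt3a2 libraries at 1 day, against 1.52, 1.58, 1.72 and 1.53 CPM in Control libraries at 1 day. At 5 days it had 1.12, 1.02, 0.734 and 1.14 CPM in Dnmt3a2 libraries, against 1.97, 1.79, 0.915 and 2.08 CPM in Control libraries. The groups did not overlap at 1 day, as for 3.43% of tested genes, and at 5 days replicate 3 of Control lay among the Dnmt3a2 libraries. Over both days the log2 difference was -0.72 (SE 0.17), or 0.609-fold (edgeR adjusted p = 0.0439), and at single days -0.69 (adjusted p = 0.477) and -0.75 (adjusted p = 0.322). The call rests on few counts, 22 to 60 per library, and ended without any 1 of 13 of the 16 libraries (adjusted p = 0.0598 to 0.106), staying with replicate 2 of Dnmt3a2 at 1 day, replicate 1 of Dnmt3a2 at 5 days or replicate 3 of Control at 5 days left out. It also ended without the choroid-rich libraries (adjusted p = 0.0759) and without the interferon-rich ones (adjusted p = 0.0898). Prokr2, a prokineticin receptor of the same list, had a log2 difference of -0.47 over both days (edgeR adjusted p = 0.129), and Hcrtr1, the orexin receptor 1, one of -0.64 at 5 days (edgeR adjusted p = 0.421). Leaving Mc4r aside, Ghsr was the 1 called by edgeR among the 4 other tested receptors that MRAP2 modulates, beside 1.43% of all tested genes, and DESeq2 and limma-trend called it too.

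Of the enzymes that make melanocortin peptides from POMC, Cpe rose and Pam fell in Dnmt3a2 libraries over both days. Cpe, carboxypeptidase E, which trims basic residues from the cut peptides, averaged 1674 ± 45.6 CPM in Dnmt3a2 and 1570 ± 67.8 CPM in Control at 1 day, and 1698 ± 19.2 CPM in Dnmt3a2 and 1500 ± 33.2 CPM in Control at 5 days (SD, n = 4 each). Its log2 difference over both days was 0.14 (SE 0.0279, edgeR adjusted p = 0.0166), and the call ended without the 3 interferon-rich libraries (adjusted p = 0.0682). Pam, the enzyme that amidates the ends of peptides such as alpha-MSH, averaged 89.9 ± 3.46 CPM in Dnmt3a2 and 105 ± 7.52 CPM in Control at 1 day, and 97.9 ± 7.10 CPM in Dnmt3a2 and 112 ± 4.84 CPM in Control at 5 days (SD, n = 4 each). Its log2 difference over both days was -0.21 (SE 0.0423, edgeR adjusted p = 0.0118). Pam overlaps 5 annotated genes, some on its own strand and some on the other, the most abundant of them at 0.755 CPM. Whether their reads were counted apart from its own was not tested. Neither gene passed at a single day (edgeR adjusted p = 0.619 at 1 day and 0.0544 at 5 days for Cpe, 0.226 and 0.246 for Pam). Pcsk1, the convertase that makes the first cuts in POMC, averaged 11.3 ± 1.80 CPM in Dnmt3a2 and 8.03 ± 1.29 CPM in Control at 5 days (SD, n = 4 each). Its log2 difference of 0.49 did not pass there (edgeR adjusted p = 0.13), nor did that of 0.32 over both days (adjusted p = 0.0842), whereas DESeq2 called Pcsk1 in both comparisons. Chgb, a granin of secretory granules, had a log2 difference of 0.215 at 5 days (edgeR adjusted p = 0.239). Of 11 tested processing genes, edgeR called 1 higher and 1 lower over both days, beside 1.43% of all tested genes, with a median log2 difference of -0.00065 beside 0.0063 for all tested genes. DESeq2 called 4 of them over both days (Chgb, Cpe, Pam and Pcsk1) and 2 at 5 days (Cpe and Pcsk1), and limma-trend called Cpe and Pam over both days and Cpe at 5 days. Among all tested genes DESeq2 called 512 over both days and 143 at 5 days.

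**Figure D3:**
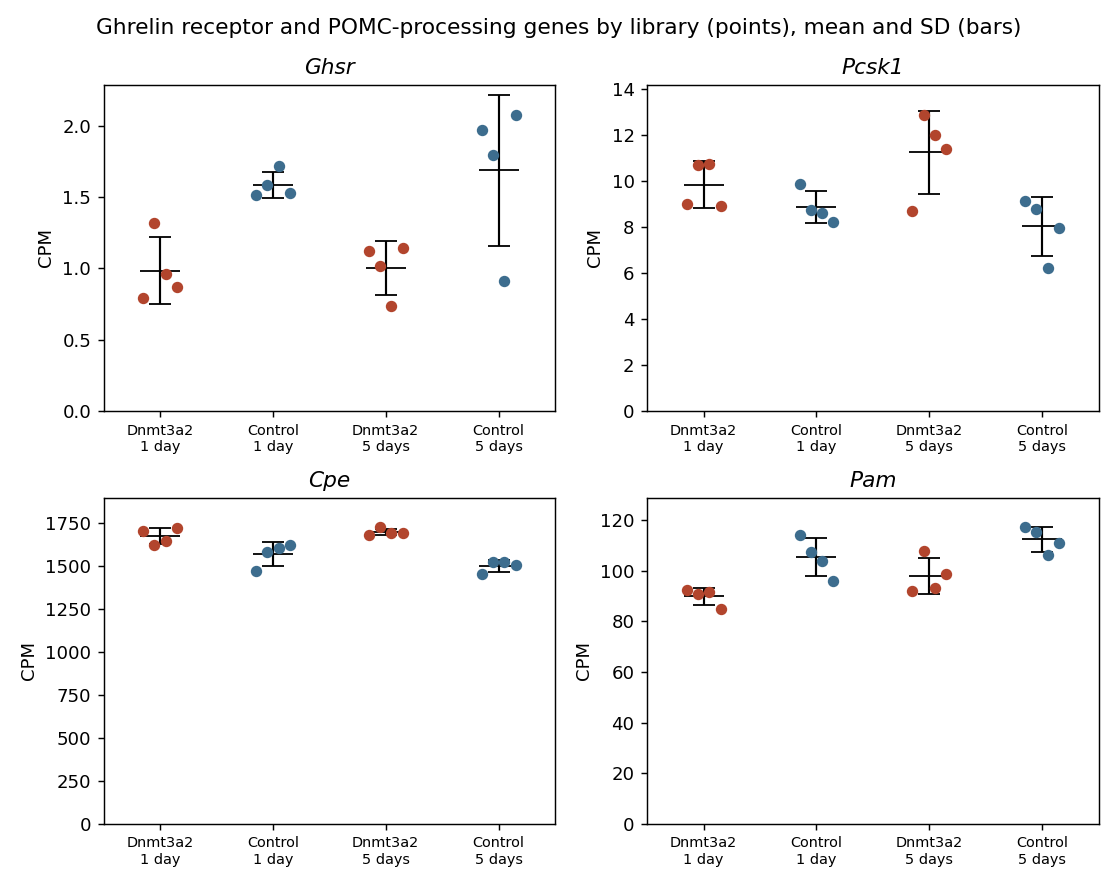
Levels in CPM of the ghrelin receptor Ghsr and of the POMC-processing genes Pcsk1, Cpe and Pam in each of the 16 libraries, with points for libraries and bars for the mean and SD of 4 libraries per group. Cpe averages 1698 CPM in Dnmt3a2 and 1500 CPM in Control at 5 days, and Pam 97.9 CPM in Dnmt3a2 and 112 CPM in Control at 5 days.

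Of 32 tested genes of the stimulatory G protein and cyclic AMP cascade that Mc4r feeds into, none was called by edgeR in any comparison. Over both days 2 had an unadjusted edgeR p under 0.05, beside 2049 of all 16899 tested genes. DESeq2 called Gnal and Gng2 over both days, among 512 genes in all, and limma-trend called Gnal. Gnal, an alpha subunit of that class, had a log2 difference of 0.16 over both days (edgeR adjusted p = 0.0506), and Gng2, a gamma subunit, one of -0.14 (adjusted p = 0.0558). Adcy3, the adenylyl cyclase of the neuronal cilium, averaged 42.3 ± 0.737 CPM in Dnmt3a2 and 44.1 ± 1.56 CPM in Control at 1 day, and 46.3 ± 3.14 CPM in Dnmt3a2 and 43.0 ± 2.20 CPM in Control at 5 days (SD, n = 4 each). Its log2 difference over both days was 0.0245 (edgeR adjusted p = 0.862), and the gene overlaps Cenpo on the other strand, which was at 1.94 CPM. Adcy9, another adenylyl cyclase, had 0.14 at 5 days (edgeR adjusted p = 0.779).

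Of 11 tested genes that modulate melanocortin receptors, none was called by edgeR, DESeq2 or limma-trend. Over both days 2 had an unadjusted edgeR p under 0.05, beside 2049 of all 16899 tested genes. Kcnj13, a potassium channel linked to Mc4r that is also a marker of the choroid plexus, had 5.60 CPM in replicate 1 of Dnmt3a2 at 1 day and 9.87 CPM in replicate 1 of Dnmt3a2 at 5 days, against at most 1.90 CPM in any other library. Its log2 difference of 2.63 over both days did not pass (edgeR adjusted p = 0.451), and the 2 high libraries are the choroid-rich ones. Grk5, a receptor kinase, had a log2 difference of 0.16 (edgeR adjusted p = 0.341). Of 15 tested genes of feeding peptides and their receptors, none was called by edgeR, DESeq2 or limma-trend. At 5 days 3 had an unadjusted edgeR p under 0.05, beside 1354 of all tested genes. Glp1r, the receptor for glucagon-like peptide 1, had a log2 difference of 0.48 at 1 day (edgeR adjusted p = 0.765) and -0.70 at 5 days (adjusted p = 0.447). Cartpt, the precursor of a peptide that restrains feeding, had -0.32 at 1 day (edgeR adjusted p = 0.867). Socs3, an inhibitor of cytokine and leptin signalling, had -0.49 at 5 days (edgeR adjusted p = 0.749).

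The primary cilium, on which Mchr1 resides, was followed with 30 tested genes, and none was called by edgeR. An unadjusted edgeR p under 0.05 was found for 6 at 5 days and 8 over both days. Of all 16899 tested genes, 1354 and 2049 had such a p. DESeq2 called Sstr3 at 5 days, Sstr3 and Gpr161 over both days, and Sstr3 for 5 days against 1 day in Dnmt3a2, and limma-trend none. In all, DESeq2 called 143, 512 and 48 genes in these comparisons. At 5 days 27 of the 30 cilium genes lay above 0, beside 52.8% of all tested genes. Their median log2 difference was 0.0897 beside 0.00809 for all tested genes. At 1 day 18 of 30 lay above 0, beside 50.9% of all tested genes, with a median of 0.0116 beside 0.00289. Sstr3, the somatostatin receptor of the cilium, averaged 38.3 ± 3.11 CPM in Dnmt3a2 and 29.7 ± 2.41 CPM in Control at 5 days (SD, n = 4 each), a log2 difference of 0.37 that did not pass (edgeR adjusted p = 0.0639). Its groups did not overlap there, as for 6.29% of tested genes. Between days in Dnmt3a2 libraries its log2 difference was 0.38 (SE 0.0843, edgeR adjusted p = 0.187). Alms1, a protein of the base of the cilium, had a log2 difference of 0.29 at 5 days (edgeR adjusted p = 0.533). Tulp3, which carries receptors into the cilium, had 0.22 at 1 day (edgeR adjusted p = 0.6), and Bbs5, a subunit of the complex that moves receptors along it, -0.22 at 1 day (adjusted p = 0.792).

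**Figure D4:**
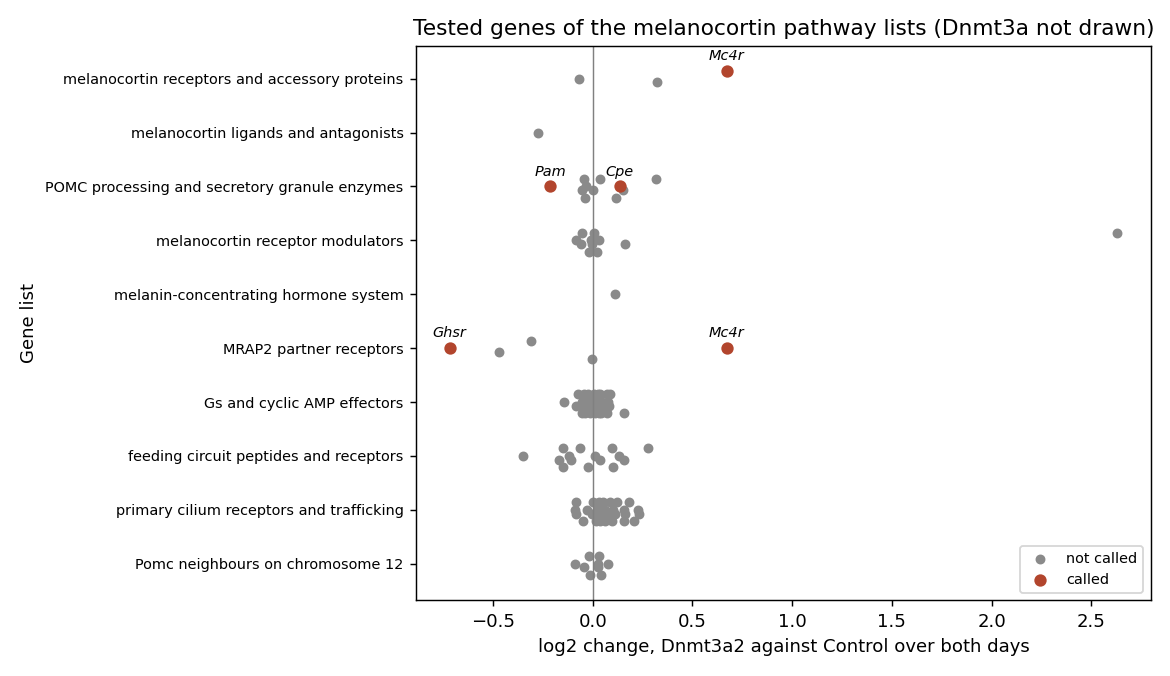
Log2 difference, Dnmt3a2 against Control over both days, of each tested gene in the pathway lists, with red points for called genes and grey points for the others. Red points are Mc4r at 0.67 in 2 lists, Cpe at 0.14, Pam at -0.21 and Ghsr at -0.72, and the grey point at 2.63 is Kcnj13.

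Genes whose levels followed Mc4r across the 16 libraries were ranked by Pearson r of log2 CPM over 13169 genes. The highest were Pck2 (r = 0.865), a mitochondrial enzyme, Cpe (0.84), Nhsl1 (0.833), Dnmt3a (0.824) and Penk (0.82), the enkephalin precursor. After the mean of each group had been subtracted the highest were Srsf9 (r = 0.828), Rnft1 (0.797) and Acaa1a (0.791), and the r of Dnmt3a was -0.227. These values are a description over 16 libraries that share the difference between viruses, and the second set removes it.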

How the data were processed

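RNA of 16 dorsal hippocampus libraries was read as estimated counts per gene, which the authors deposited without normalization, and as log2 CPM values, which the authors also deposited. Trim Galore 0.6.4, kallisto 0.4.6, edgeR 3.17 and build GRCm38.p6 are named per the submitters' processing notes; no source used here gives the annotation release or the strand of counting. Of the counts, 26.2% were not whole and were rounded. The deposited log2 values matched those computed from the counts to 5.33e-15. GENCODE M21 named 55144 of 55385 identifiers.

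Counts were filtered with filterByExpr (minimum count 10), scaled with TMM and fitted with edgeR 4.0.16 under R 4.3.3, as a robust quasi-likelihood fit of all 16 libraries with a mean per group, which left 16899 genes. The threshold for a call was 0.05 on p adjusted by Benjamini and Hochberg over all genes tested. An SE is the log2 difference divided by the root of F. The 95% intervals are for the log2 difference between groups. They rest on the spread between libraries and are not a range of library values. The fit was tested on simulated data. The members and the gene lists were chosen with earlier results of these data known. Named genes are the members, list genes called in any comparison, the list genes with the greatest change at each day, partners by level and the genes most like Mc4r. The alternatives were other filters (a mean of at least 1 CPM, none), RLE factors, DESeq2 1.42.0, limma 3.58.1, only the groups compared, a replicate block, and libraries left out.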

Additional observations from a re-analysis of the deposited data

Results flagged for a closer look

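Of 116 sets of 4 libraries of named genes, 10 held a library whose gap to its nearest neighbour was beyond the 95% critical value of Dixon's test, where chance gives about 1 in 20. Mrap2 was high in replicate 4 of Dnmt3a2 at 5 days, with 2.96 CPM. Pomc was high in replicate 1 of Control at 5 days, with 0.768 CPM. Kcnj13 was high in replicate 1 of Dnmt3a2 at 1 day (5.60 CPM), in replicate 1 of Dnmt3a2 at 5 days (9.87 CPM) and in replicate 3 of Control at 5 days (1.90 CPM). Sstr3 was low in replicate 1 of Dnmt3a2 at 1 day, with 25.9 CPM. Ptrhd1, a neighbour of Pomc, was low in replicate 2 of Dnmt3a2 at 1 day, with 8.23 CPM. Socs3, an inhibitor of cytokine signalling, was high in replicate 1 of Dnmt3a2 at 5 days, with 1.78 CPM. Hcrtr1 was high in replicate 3 of Control at 5 days, with 2.01 CPM. Cartpt, a feeding peptide, was low in replicate 2 of Control at 1 day, with 1.08 CPM.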

How the results depend on the processing

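Over 491 recomputed values, the 4 genes moved by less than the spread between replicates or kept their side of the threshold. The log2 difference of Mc4r over both days was 0.55 to 0.76, a range whose sign the choice of the gene fixes, and the gene was called at 5 days in 5 of 25 settings, DESeq2 among them. At 1 day the log2 difference ranged from -0.40 to 0.079 for Pomc and from -0.0149 to 0.0621 for Mchr1, so its sign changed in some settings. Without a filter, Dnmt3a2 against Control at 1 day gave 34 genes called, with only the groups compared 7, and with DESeq2 65, against 15. Leaving out each library gave 6 to 22, the lowest without replicate 2 of Control at 1 day (6) and replicate 3 of Dnmt3a2 at 1 day (7). At 5 days the count of 54 was 94 with only the groups compared, 143 with DESeq2, 90 without the choroid-rich and 105 without the interferon-rich libraries, and 22 to 82 with single libraries left out (22 and 33 without replicates 4 and 3 of Dnmt3a2 at 5 days, 29, 30 and 26 without replicates 1, 3 and 4 of Control at 5 days, 82 without replicate 3 of Control at 1 day). Over both days 241 became 512 with DESeq2 and 121 to 272 with single libraries left out (154 and 128 without replicates 3 and 4 of Dnmt3a2 at 5 days, 144 without replicate 2 of Control at 1 day, 141, 146 and 121 without replicates 1, 2 and 4 of Control at 5 days). Between days in Dnmt3a2, 0 became 6 without a filter, 48 with DESeq2, and 0 to 1 with single libraries left out (1 without replicate 1 of Dnmt3a2 at 5 days). The cause was not tested.

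With the replicate number as a block the counts were 17 at 1 day, 65 at 5 days and 295 over both days, and Mc4r over both days had a log2 difference of 0.67. Libraries of equal number correlated at -0.086 to 0.38 over 24 pairs, with a median of 0.0219 beside 0.00255 for other pairs. Values this near 0 are not those of whole expression profiles, so they do not measure how alike the libraries were. Of 16 libraries, 6 correlated best with their own number, and no share by chance was set beside this count. The choroid-rich and interferon-rich libraries were all replicate 1. Whether the numbers mark a shared batch was not tested. Pomc was not tested with a mean of at least 1 CPM. Depth limits Pomc most, at 5 to 27 counts per library.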
